A study of Mus musculus with 4 samples.

Results

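The genes described here mark the nephron progenitors of the embryonic kidney and the first structures these cells form, though some are also expressed in other cells. They are 31 genes chosen by name from knowledge of nephron development, with earlier results of these data known. All 31 were among the 22761 gene names present in every table. At E18.5, late in gestation, whole kidneys of mixed-strain mouse embryos were taken for RNA sequencing, to ask what the loss of Hnf4a does in the nephron lineage. The control group was Hnf4a c/+ with Six2GFPcre (1 conditional allele, 2 libraries) and the mutant group was Hnf4a c/c with Six2GFPcre (2 conditional alleles, 2 libraries). Both groups carried the Cre driver, which is active in Six2-expressing nephron progenitors and is inherited by the tubule and podocyte cells they form. The controls can thus lose 1 Hnf4a copy in that lineage, and cells outside it keep their alleles in both groups. The labels do not say which embryo or embryos each library came from, and the tests measure the spread between these libraries.

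Nephron progenitors are mesenchymal cells that cap the tips of the branching ureteric bud. They renew under the control of transcription factors such as Six2 and under Fgf and Bmp signals, and Wnt9b from the ureteric bud prompts part of them to condense. The condensed cells switch on Wnt4, Fgf8 and Lhx1, become epithelial renal vesicles, then comma- and S-shaped bodies, and later split into podocytes, proximal tubule, loop of Henle and distal tubule. Hnf4a is known as a nuclear receptor of the proximal tubule lineage and is not a marker of the uninduced progenitor.

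Levels were FPKM, fragment counts scaled by transcript length and by library size, as the authors deposited them. Between 13552 and 13646 genes per library reached 1 FPKM, and the absolute depth is unknown because the tables hold no read totals. Hnf4a itself was at 89.3 and 84.6 FPKM in the control and 87.1 and 78.5 in the mutant libraries. This value spans the whole gene and does not check the deletion. Y-linked transcripts were present in both replicate 1 libraries and Xist in both replicate 2 libraries, so the 2 libraries of a group are not repeats of the same embryo, and the replicate number and this pattern cannot be told apart. The 10 proximal tubule genes of another list, which stand downstream of the progenitors, were all lower in both mutant libraries than in either control, with log2 differences from -1.56 to -0.75. None of these 10 passed the adjusted threshold of 0.05, the lowest adjusted p being 0.0504 for Lrp2 and Pck1, but 5 were under 0.1 and all 10 had an unadjusted p under 0.05 with limma. Their summed FPKM was 628 and 507 in control and 259 and 252 in mutant libraries. Markers of podocytes, ureteric bud, stroma and endothelium were present in every library, and 6 adrenal and gonadal markers summed to at most 1.96 FPKM in any library.

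All 31 progenitor and early nephron genes were detected in all 4 libraries, and none differed between mutant and control kidneys past the threshold. With limma across 13287 genes on log2(FPKM + 1), 0 of 31 passed an adjusted p under 0.05 as higher, against 0.0452% of all genes, and 0 passed as lower, against 0.113%. At an unadjusted p under 0.05 there were also 0 of 31, against 7.24% of all genes tested. Log2 differences ran from -0.27 (Lef1) to 0.31 (Eya1), with a median of -0.017 against 0.022 over all genes tested, and 13 of 31 were positive. In whole tissue, fewer cells of a type and less RNA per cell cannot be told apart.

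The fit bounded how large a difference these libraries allow. For all 31 genes the 95% interval of the log2 difference lay between -1 and 1, as it did for 86.0% of all genes tested, so a doubling or a loss of as much on this scale lay outside every interval. For 17 of the 31 it lay between -0.5 and 0.5, against 49.3% of all genes. A result short of the threshold does not show that the groups are equal, and differences smaller than these bounds were not resolved by 2 libraries a group. The scale understates the change of genes at low FPKM such as Fgf9.

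**Figure D1:**
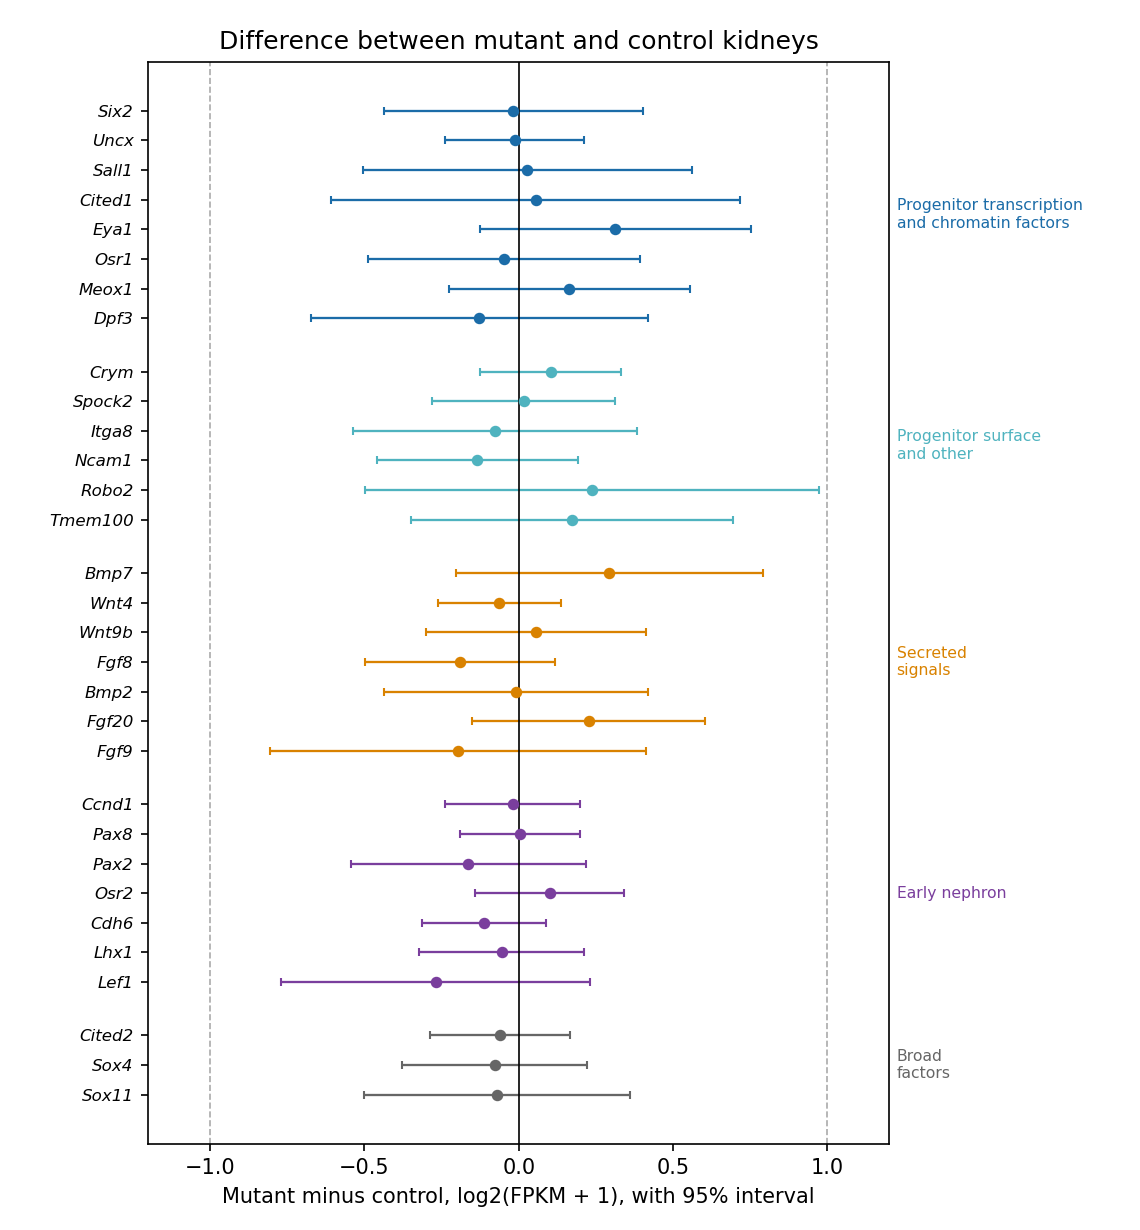
Mutant minus control difference of each gene on the log2(FPKM + 1) scale (horizontal axis), with its 95% interval from limma as a bar and dashed lines at -1 and 1, for 2 libraries a group. Every bar crosses 0 and all 31 lie within the dashed lines, Robo2 reaching nearest to them.

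Six2, the homeobox factor that keeps the progenitors undifferentiated, lies at chr17:86083608-86087594 in mm9. It was at 67.0 and 49.9 FPKM in control replicates 1 and 2 and at 58.4 and 55.9 in mutant replicates 1 and 2. Both mutant values fell between the control values. The log2 difference was -0.017 (SE 0.16, adjusted p = 0.98), with an interval from -0.44 to 0.40. The authors' interval around each value ran from 61.8 to 72.2 in control replicate 1 and from 45.7 to 54.2 in control replicate 2, so the controls differed by more than the interval within a library. Whether transcripts of the Six2GFPcre allele contribute reads to Six2 was not tested.

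The start of Six2 is shown because this gene marks the targeted progenitors and names the Cre driver carried in all 4 libraries. The stretch is the 250 bases before the RefSeq start on GRCm38.p6, chr17:85688255-85688504, minus strand, printed 5′ to 3′, and its coordinates are not those of mm9. Capitals mark the single CCAAT box, searched as CCAAT on both strands and held by 33.8% of all windows of this length.

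Six2 upstream window: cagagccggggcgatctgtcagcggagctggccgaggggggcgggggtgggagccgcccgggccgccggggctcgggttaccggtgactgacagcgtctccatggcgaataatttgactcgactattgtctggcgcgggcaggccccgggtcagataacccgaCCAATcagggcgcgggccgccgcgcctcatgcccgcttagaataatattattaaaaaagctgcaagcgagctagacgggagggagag

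Windows of the same kind were matched for 19 of the 31 genes (30 windows), and CCAAT was in 10 of these windows, 33.3% against the 33.8% of all windows. The letters CAAAGTCCA, a motif known for Hnf4a, occurred on neither strand of these windows and in 0.384% of all 32851 windows. So rare a string would mostly be absent from any 30 windows, so its absence says nothing about Hnf4a sites at these genes.

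The other transcription and chromatin factors of the progenitor state gave the same picture. Cited1, a transcriptional coactivator of the least committed progenitors (chrX:99442717-99447520), was at 30.2 and 18.8 FPKM in control and at 26.8 and 23.0 in mutant libraries. Its mutant values lay inside the control range, and its log2 difference was 0.055 (SE 0.25, adjusted p = 0.96; interval -0.61 to 0.72). Sall1, a zinc finger repressor, was at 53.6 and 36.7 against 47.7 and 42.9 FPKM, again with both mutant libraries inside the control range. The homeobox gene Uncx averaged 52.7 ± 3.69 against 52.1 ± 1.51 FPKM (SD, n = 2 per group here and below). Osr1, a zinc finger factor of early kidney mesenchyme, averaged 13.6 ± 2.56 against 13.0 ± 0.805 FPKM.

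Eya1, the phosphatase and coactivator that works with Six2 and its relatives, had the largest positive difference of the 31 with all 4 libraries. It lies on mm9 chromosome 1 from 14159039 and was at 15.4 and 12.5 FPKM in control and at 19.3 and 15.8 in mutant libraries. The groups did not overlap, though mutant replicate 2 was only just above control replicate 1. The log2 difference was 0.31 (SE 0.16, adjusted p = 0.76; interval -0.13 to 0.75), and within replicate numbers it was 0.31 in both. It was 0.17 without control replicate 2, where Robo2, Bmp7 and Fgf20 were larger. Without mutant replicate 1 it was 0.18, where Bmp7, Robo2, Tmem100, Fgf20 and Meox1 were larger. Meox1, a homeobox gene, also had groups that did not overlap, at 6.71 and 5.81 against 6.88 and 7.35 FPKM, with an adjusted p of 0.79. Dpf3, a subunit of the BAF chromatin remodelling complex, averaged 5.16 ± 1.30 against 4.58 ± 0.236 FPKM. In control replicate 1 the authors' interval for Dpf3 ran from 0 to 21.0, so that value is imprecise.

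Surface and other progenitor genes overlapped between groups in 5 of 6 cases, against 7994 of all 13287 genes tested. Crym, a thyroid hormone binding protein, was the exception, with 59.0 and 52.7 FPKM in control and 59.4 and 60.6 in mutant libraries (log2 difference 0.10, SE 0.085, adjusted p = 0.77). Its log2 difference was 0.024 without control replicate 2. The authors' interval for mutant replicate 1, from 45.8 to 57.9, does not hold its own FPKM of 59.4 and ends below control replicate 1, so the lack of overlap rests on an uncertain value. Itga8, the integrin subunit that binds nephronectin, was at 37.6 and 27.1 against 30.1 and 30.5 FPKM. Spock2, an extracellular proteoglycan, averaged 35.5 ± 3.49 against 35.9 ± 2.78, and the adhesion molecule Ncam1 28.6 ± 3.47 against 25.9 ± 1.74 FPKM.

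Robo2 and Spock2 in both groups, and Tmem100 in the mutant group, varied more between libraries of a group than between groups. Itga8, Ncam1 and Crym did so in the control group. Robo2, a receptor for Slit guidance proteins (mm9 chromosome 16), was at 16.4 and 24.7 FPKM in control and 19.7 and 29.1 in mutant libraries, higher in replicate 2 of each group. Its log2 difference was 0.24 (SE 0.27, adjusted p = 0.82; interval -0.50 to 0.97), and the within-group differences between replicates 1 and 2 were -0.56 in control and -0.54 in mutant libraries. Tmem100, a membrane protein (chr11:89891662-89897819), was at 6.81 and 6.18 against 6.30 and 8.75 FPKM. Only mutant replicate 2 was above the controls, and the log2 difference was 0.17 (SE 0.19, adjusted p = 0.82).

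**Figure D2:**
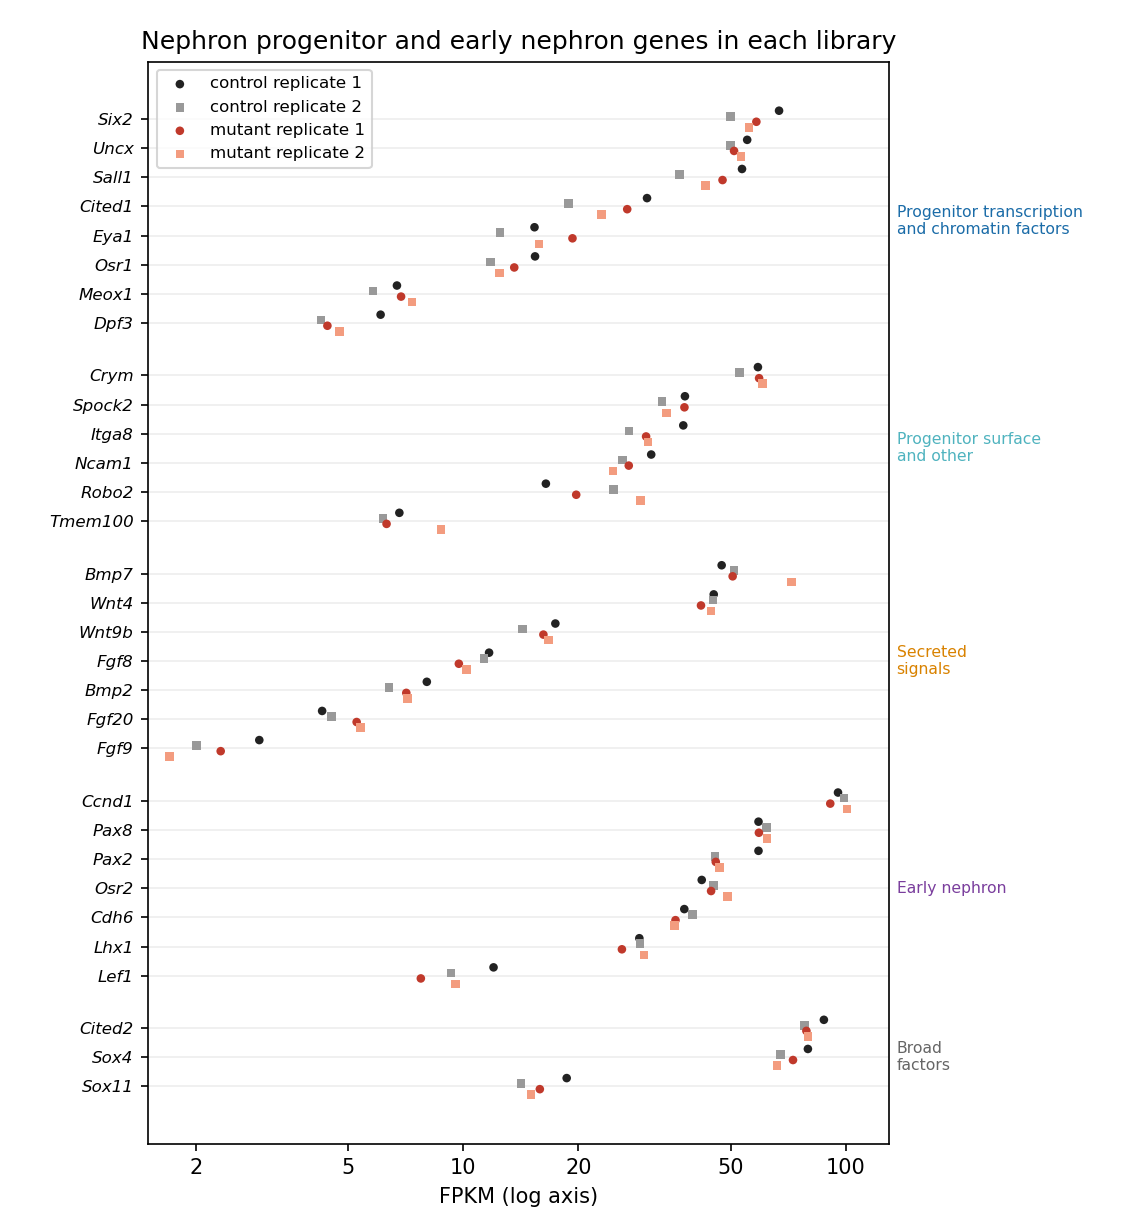
FPKM of each gene in each library on a log axis (horizontal), grouped by role and ordered by mean level. Black and grey points are control replicates 1 and 2, red and pale red points mutant replicates 1 and 2. Levels span from a mean of 2.24 FPKM for Fgf9 to 96.7 for Ccnd1, and control replicate 1 is often the rightmost point.

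Among the secreted signals the largest value rested on 1 library. Bmp7, the signal that supports progenitor survival, lies on mm9 chromosome 2 from 172693513 and was at 47.4 and 51.0 FPKM in control and at 50.6 and 72.2 in mutant libraries. Mutant replicate 1 lay between the controls and mutant replicate 2 stood above all others, so the log2 difference of 0.29 (SE 0.19, adjusted p = 0.76) became 0.041 without mutant replicate 2 and 0.54 without mutant replicate 1. Its locus also ended at 172765822 in both controls and at 172766110 and 172766087 in the mutant tables. Bmp2, a related ligand, was near equal at 7.21 ± 1.15 against 7.12 ± 0.033 FPKM, and Bmp7 exceeded Bmp2 in every library by 5.90 to 10.1 times.

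The 3 Fgf ligands differed in sign, with none past the threshold. Fgf20 and Fgf9 are redundant signals that maintain the progenitors. Fgf20 (chr8:41364520-41372307) was at 4.28 and 4.53 FPKM in control and at 5.26 and 5.38 in mutant libraries, with groups that did not overlap (log2 difference 0.23, SE 0.14, adjusted p = 0.76). Fgf9 (chr14:58691523-58731557) was at 2.93 and 2.0 against 2.32 and 1.71 FPKM, with overlap (-0.20, SE 0.23, adjusted p = 0.82). The Fgf9 difference was -0.0027 without control replicate 1 and -0.049 without mutant replicate 2. Fgf8, which newly induced renal vesicles need for survival (mm9 chromosome 19), was at 11.7 and 11.3 FPKM in control and at 9.74 and 10.2 in mutant libraries, also without overlap (-0.19, SE 0.11, adjusted p = 0.76). The authors' intervals for these 3 ligands reached from 22.9% to 36.0% of the FPKM to either side.

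The Wnt signals differed little. Wnt9b, the inducing signal from the ureteric bud, averaged 15.9 ± 2.20 against 16.4 ± 0.345 FPKM. Wnt4, which drives the change from mesenchyme to epithelium, was at 45.2 and 45.0 FPKM in control and at 41.9 and 44.5 in mutant libraries, lower in both mutant libraries (log2 difference -0.063, SE 0.074, adjusted p = 0.83). It was -0.019 without mutant replicate 1. Over the 7 signals the log2 differences had a median of -0.0095, with 3 positive.

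Of the early nephron genes, Lhx1, the homeobox factor that patterns the renal vesicle, was at 28.9 and 29.0 FPKM in control and at 26 and 29.7 in mutant libraries. Mutant replicate 1 was the lowest and mutant replicate 2 the highest of the 4, and the log2 difference was -0.055 (SE 0.099, adjusted p = 0.89; interval -0.32 to 0.21). The Lhx1 locus, on mm9 chromosome 11, ended between 84339036 and 84340604 and overlapped Lhx1os in replicate 2 of each group. Reads of the 2 genes cannot be told apart there without strand. Lef1, the nuclear partner of beta-catenin in Wnt signaling (mm9 chromosome 3), had the largest negative difference of the 31 with all 4 libraries. It was at 12.0 and 9.30 FPKM in control and at 7.75 and 9.54 in mutant libraries, and the groups overlapped (-0.27, SE 0.19, adjusted p = 0.76; interval -0.77 to 0.23). Without control replicate 1 it was -0.10, smaller in size than the -0.17 of Fgf8 and the -0.15 of Cdh6. Without mutant replicate 1 it was -0.13, where Fgf9, Ncam1, Fgf8, Pax2 and Sox4 were larger in size.

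The paired-box factors Pax2 and Pax8 are needed to form the nephron. Pax2 was at 59.2 FPKM in control replicate 1 and at 45.6 in control replicate 2, with 45.8 and 46.7 in the mutant libraries, so 1 control stood above the other 3 libraries. Pax8 was at 59.2 and 62.1 against 59.3 and 62.4 FPKM (log2 difference 0.0047, interval -0.19 to 0.20). Cdh6, a cadherin of cells bound for the proximal tubule, was at 37.9 and 39.8 FPKM in control and at 35.9 and 35.7 in mutant libraries. These groups did not overlap, and the log2 difference was -0.11 (SE 0.075, adjusted p = 0.76; interval -0.31 to 0.089). Ccnd1, a G1 cyclin of the renal vesicle, averaged 97.3 ± 2.50 against 96.0 ± 6.89, and the zinc finger gene Osr2 43.6 ± 2.19 against 46.8 ± 3.32 FPKM.

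The 3 factors expressed beyond the nephron lineage had small negative differences, from -0.078 to -0.060. The groups of the 3 broad factors overlapped, as did those of 7994 of all 13287 genes tested. The coactivator Cited2 averaged 82.9 ± 6.89 against 79.3 ± 0.501, Sox4 73.6 ± 8.60 against 69.5 ± 4.69 and Sox11 16.4 ± 3.18 against 15.4 ± 0.593 FPKM. Related genes other than the paired-box factors kept their order of level in every library. Sox4 exceeded Sox11 by 4.27 to 4.77 times, Cited2 exceeded Cited1 by 2.90 to 4.14, Osr2 exceeded Osr1 by 2.73 to 3.95 and Fgf20 exceeded Fgf9 by 1.46 to 3.15 times. Pax8 and Pax2 were level in control replicate 1, where the ratio was 1, and Pax8 was the higher in the other libraries, by up to 1.36 times.

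Counting by overlap, 4 of the 31 genes had both mutant libraries above both controls (Eya1, Meox1, Crym and Fgf20), a share below the 22.7% of all genes tested. Another 3 had both below (Cdh6, Fgf8 and Wnt4), against 17.1% of all genes. The remaining 24 overlapped, against 7994 of the 13287 genes tested.

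The controls differed more from each other than the groups did for Six2, Cited1, Sall1 and Pax2 among others. Control replicate 1 exceeded control replicate 2 in 23 of 31 genes, against 44.6% of all genes tested, with a median log2 difference of 0.20 against -0.031. For the 8 progenitor factors it was higher in 8 of 8, with a median of 0.39. Control replicate 2 was the lowest of the 4 libraries for all 8, against 21.1% of all genes tested. Early nephron genes did not share this, with 2 of 7 higher (Pax2 and Lef1) and a median of -0.052. Mutant replicate 1 exceeded mutant replicate 2 in 11 of 31 genes, against 47.1% of all genes tested (median -0.029 against -0.011). The authors' intervals of the controls were apart for 11 of the 31 genes, 10 of them higher in control replicate 1 (Six2, Cited1, Sall1, Eya1, Itga8, Spock2, Ncam1, Pax2, Sox4 and Sox11) and Robo2 lower. Those of the mutant libraries were apart for 3 (Eya1, Robo2 and Bmp7). The intervals were compared for the 31 genes alone, so neither count can be set against a share of all genes.

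The direction of the mutant difference depended on which libraries were set against each other. Replicate 1 of the mutant group was above replicate 1 of the control group in 8 of 31 genes, against 55.1% of all genes tested, with a median of -0.13. Between the replicate 2 libraries the mutant was higher in 25 of 31, against 53.2% of all genes, with a median of 0.087. The 8 progenitor factors were all higher in the mutant among the replicate 2 libraries (median 0.19). That count adds nothing further, since it follows from control replicate 2 being the lowest library for all 8. Among the replicate 1 libraries 2 of 8, Eya1 and Meox1, were higher in the mutant (median -0.17). For 17 of 31 genes the difference was negative in replicate 1 and positive in replicate 2, against 20.3% of all genes tested. Eya1, Robo2, Fgf20, Bmp7, Osr2, Meox1, Crym and Pax8 were higher in the mutant under both numbers, Pax8 by less than 0.01, and Fgf8, Fgf9, Ncam1, Cdh6, Sox4 and Wnt4 lower.

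**Figure D3:**
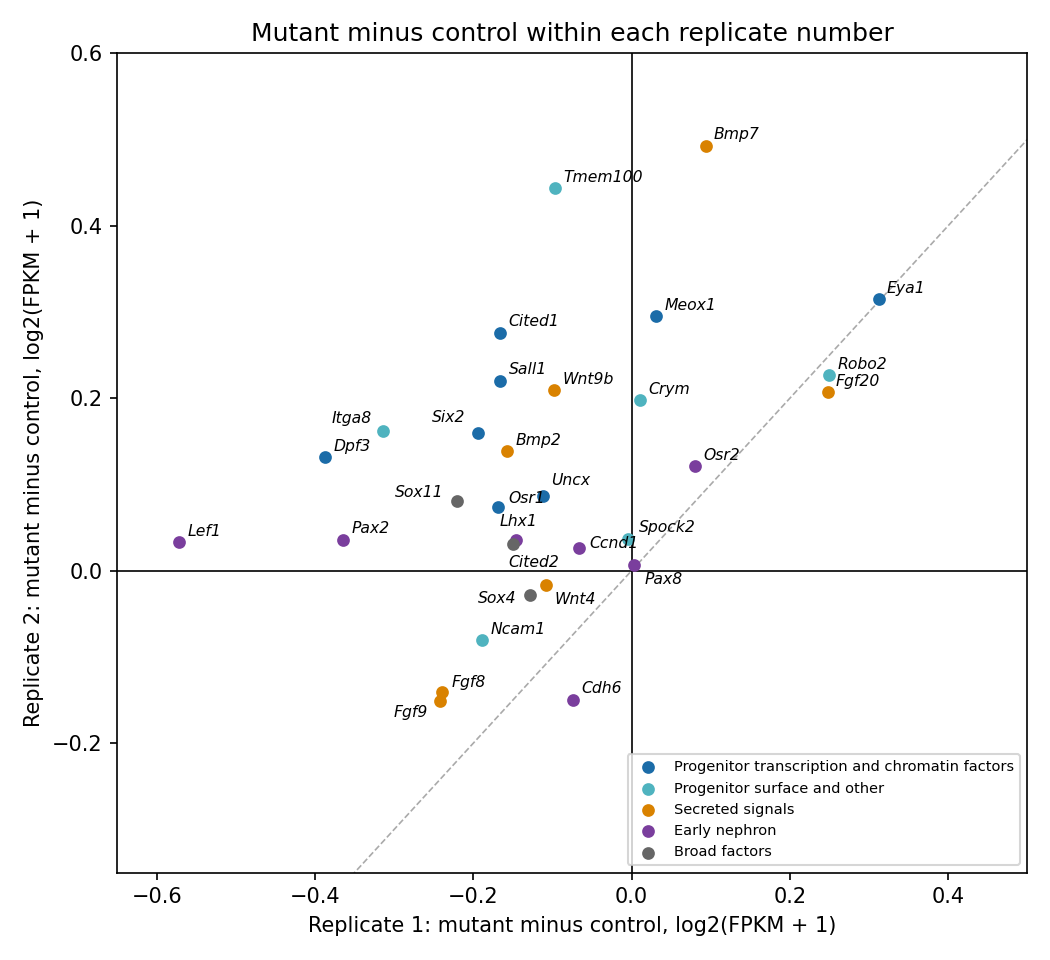
Mutant minus control on the log2(FPKM + 1) scale within the replicate 1 libraries (horizontal) and within the replicate 2 libraries (vertical), 1 point a gene, coloured by role. The dashed line marks equal differences. 17 of 31 points lie in the upper left, lower in the mutant in replicate 1 and higher in replicate 2.

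Levels of other cell types beside these values also differed between the controls. From control replicate 1 to control replicate 2, the summed FPKM of 7 stromal markers was 442 and 383 and that of 10 proximal tubule genes 628 and 507. It was 231 and 218 for 7 podocyte markers, 502 and 481 for 8 ureteric bud markers and 299 and 307 for 6 endothelial markers. For 8 proliferation genes it was 397 and 417. In mutant replicates 1 and 2 the sums were 405 and 342 for stroma, 226 and 221 for podocytes, 536 and 504 for ureteric bud, 301 and 315 for endothelium and 426 and 423 for proliferation. The 2 erythroid genes tested summed to 17.5 and 21.4 in control and 27.7 and 29.4 in mutant libraries, and 6 leukocyte markers to 97.1 and 86.7 against 83.7 and 97.5. Foxd1, the defining gene of the stromal progenitors that neighbour the cap, was at 38.4 and 36.4 against 32.8 and 31.9 FPKM (limma, adjusted p = 0.71). Of the 7 stromal markers, 5 had a negative log2 difference, Foxd1 among them, and 2 a positive one, Dcn and Meis1. Dcn was at 60.0 and 58.9 FPKM in control and at 75.2 and 62.1 in mutant libraries. Of the 8 ureteric bud markers, 4 had a positive log2 difference and 4 a negative one, so their sums do not stand for every marker. Calb1 was at 48.9 and 59.5 FPKM in control and at 117 and 67.1 in mutant libraries. Hoxb7 was at 55.7 and 51.0 against 57.4 and 88.7 FPKM. The part of tissue make-up, sex or library quality in the spread was not tested.

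Other genes of progenitor and early nephron biology, a list of 60 that does not hold the 31, gave the same result. Of the 55 tested, 0 passed in either direction with limma, 0 had an unadjusted p under 0.05, and 19 (34.5%, against 55.3% of all genes) were positive, with a median of -0.023. By mean level the highest were Ctnnb1, which encodes beta-catenin, at 153 ± 1.79 against 150 ± 8.26 FPKM, and the glypican Gpc3 at 151 ± 0.762 against 139 ± 12.2. The groups did not overlap in 8 genes (14.5%) that were higher and 9 (16.4%) that were lower in the mutant, against 22.7% and 17.1% of all genes. In this list too, 21 of 55 genes, 38.2%, were negative in replicate 1 and positive in replicate 2.

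Loci of some of the 31 genes overlapped other named genes in the tables. They were Itga8 (E030013I19Rik), Ncam1 (Gm11149), Pax2 (1700039E22Rik and Mir6405), Robo2 (Mir691) and Spock2 (Mir6906), besides Lhx1. Whether counting used strand is unknown, which makes such reads uncertain. None of the 31 names had more than 1 row in a table.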

How the data were processed

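The authors deposited 1 table of FPKM values, with interval bounds, for each of 4 libraries. Cufflinks 2.1.1, TopHat2 2.0.11, SAMtools 0.1.19, Bowtie 1.0.0 and the mm9 build are named, per the submitters' processing notes. Sources used here give neither annotation nor options. Gene models were named separately in each table, so loci and FPKM can shift between libraries.

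Rows were joined by symbol and summed where a symbol repeats. Of 22761 names in all tables, 99 with a row not marked OK were left out. The 13287 genes that reached 1 FPKM in 2 or more libraries entered a fit of log2(FPKM + 1) by limma 3.58.1 in R 4.3.3 (trended eBayes, two-sided, Benjamini-Hochberg over all genes, threshold 0.05). The fit was tested on simulated data. File positions were shifted to count from 1.

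The genes and lists were chosen with earlier results of these data known. Values in every library were given for Six2, Cited1, Lhx1 and the 8 largest differences, and for further genes chosen after their values were seen. Of the further nephron list the 2 highest genes were named. Lrp2 and Pck1 were named for the lowest adjusted p of their list. Foxd1, Dcn, Meis1, Calb1 and Hoxb7 were added after their values were seen. Other lists are given by sums or by presence. Alternatives changed the pseudocount, filter, scaling, variance trend, row choice, threshold, replicate block and each library left out. Protein sequences were not used here.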

Additional observations from a re-analysis of the deposited data

Results flagged for a closer look

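The median log2 difference of the 31 genes, mutant minus control, was -0.13 between the replicate 1 libraries and 0.087 between the replicate 2 libraries. It is listed here because the 2 signs differ. Replicate 1 minus replicate 2, the median of the 31 genes was 0.20 between the controls and -0.029 between the mutant libraries. The replicate numbers also differ in Y-linked and Xist transcripts, whose part was not tested. With 1 library per group and number, the difference between -0.13 and 0.087 was not tested.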

How the results depend on the processing

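No alternative called any of the 31 genes or of the further nephron list. Of the 10 proximal tubule genes, which are not in that list, 5 were under an adjusted p of 0.1. Of 339 recomputed differences of single genes, 309 kept their sign and side of the threshold and 30 turned sign, none of them called; 12 genes kept their sign throughout. Median-ratio scaling turned Spock2 to -0.0048 and Pax8 to -0.017. The count over all genes tested was 21. It was 41 with no filter, 33 with a minimum of 5 FPKM, 11 without the variance trend, 79 at a threshold of 0.1, 6 with the replicate number as a block (3 higher, 3 lower), and from 0 to 14 on leaving out 1 library (0 without control replicate 1 and 0 without control replicate 2). A lone library is assumed to vary like the other group. The block changed no call among the 31. Across 13282 genes, deviations of same-numbered libraries correlated at r = 0.12, a hint from the data and not the design.

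The median over the 31 genes was -0.017. Leaving out control replicate 1 made it 0.088 (21 genes positive) and leaving out control replicate 2 made it -0.083 (10 positive). It was -0.046 and -0.031 on dropping mutant replicates 1 and 2 (13 and 12 positive). Fits that leave 1 library in a group are given in this paragraph by effect size only. Leaving out each library in turn gave ranges across 0 for 19 genes: Six2 -0.23 to 0.19, Cited1 -0.27 to 0.38, Osr1 -0.23 to 0.13, Sall1 -0.24 to 0.29, Tmem100 -0.036 to 0.38, Itga8 -0.30 to 0.15, Uncx -0.083 to 0.058, Dpf3 -0.34 to 0.088, Spock2 -0.081 to 0.11, Lhx1 -0.15 to 0.037, Pax2 -0.35 to 0.021, Pax8 -0.031 to 0.040, Wnt9b -0.078 to 0.19, Ccnd1 -0.092 to 0.052, Bmp2 -0.15 to 0.13, Sox4 -0.20 to 0.040, Sox11 -0.26 to 0.12, Cited2 -0.14 to 0.024 and Robo2 -0.041 to 0.52. The other 12 kept their sign, with Bmp7 0.041 to 0.54, Cdh6 -0.15 to -0.078, Crym 0.024 to 0.18, Eya1 0.17 to 0.45, Fgf20 0.19 to 0.26, Fgf8 -0.22 to -0.16, Fgf9 -0.39 to -0.0027, Lef1 -0.44 to -0.10, Meox1 0.073 to 0.25, Ncam1 -0.25 to -0.014, Osr2 0.029 to 0.17 and Wnt4 -0.11 to -0.019. The cause was not tested.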
